A study of Mus musculus with 2 samples.

Results

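The insulin-like growth factor (IGF) system was followed through 10 genes, which are 2 ligands (Igf1, Igf2), 2 receptors (Igf1r, Igf2r) and 6 binding proteins (Igfbp2 to Igfbp7). They were taken by name from the 32531 genes listed for each library, and all 10 had a row. The libraries, IP1 and IP2, hold ribosome-bound RNA immunopurified from the cerebral cortex of adult, untreated Gdnf-EGFP/Rpl10a mice of the line ES2243. Every sample carries the same transgene, a ribosomal protein Rpl10a tagged with EGFP and placed under regulatory sequences of Gdnf, so that tagged polysomes can be captured with an anti-EGFP antibody. The series describes the targeted cells as pericytes, the contractile cells that sit on the wall of brain capillaries. Both libraries belong to 1 group, and separate animals are not stated in the labels, so the spread between them may be technical. No unpurified RNA, other genotype or other condition was analysed here, so the values are levels and ratios between 2 libraries, not enrichments or responses.

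IGF-1 and IGF-2 are small secreted peptides related to insulin that promote growth and survival of cells. Both signal through the tyrosine kinase receptor encoded by Igf1r, while the receptor encoded by Igf2r, which also carries mannose 6-phosphate tagged enzymes, takes up IGF-2 and delivers it to lysosomes. The binding proteins are secreted, hold most IGF outside cells in complexes, and release it when they are cut by proteases. Igf2 is imprinted, and in the adult rodent brain its message is best known from the choroid plexus and the meninges.

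Reads in genes numbered 65200231 for IP1 and 72732502 for IP2, and values are CPM, on which scale 1 CPM is 0.0001% of these reads. A count of 0 allows up to 3 counts, or 0.0460 CPM for IP1 and 0.0413 CPM for IP2. This limit and the 95% intervals below cover counting error only, since PCR copies were not marked. Transcript lengths were not used here, so CPM values compare 1 gene between libraries and do not rank genes against each other. Gdnf, whose regulatory sequences drive the tag, was at 10.2 CPM in IP1 and at 7.84 CPM in IP2. All 10 pericyte markers listed for the check were at 10 CPM or more in both libraries, but so were all 7 oligodendrocyte precursor and all 6 excitatory neuron markers. The RNA therefore cannot be credited to pericytes alone, and fewer cells of a type cannot be told apart from less RNA per cell.

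Messages of both ligands, both receptors and all 6 binding proteins were present in both libraries, and Igf2 took about as large a share of the reads of the system in each (67.7% in IP1, 68.3% in IP2). Igf1 was 1.65-fold higher in IP1, while Igfbp7 was 1.66-fold and Igf2 1.36-fold higher in IP2. The system as a whole took 80033 reads in IP1, or 0.123% of all gene counts (exact binomial interval 0.122 to 0.124%), and 120685 reads in IP2, or 0.166% (0.165 to 0.167%). All 10 members were at 10 CPM or more in both libraries. Of all genes listed, 28.3% reached that level. The members were chosen with earlier results of these data known, so this is no test of the system. Igfbp6 passed narrowly, with an interval of 9.47 to 10.95 CPM in IP2. The median level of the members was 33.6 CPM in IP1, against 38.7 CPM in IP2, while over all genes it was 0.184 CPM in IP1, against 0.0962 CPM in IP2. Of the 32531 genes listed, 19580 had any count, and those without one lower the median over all genes. Transcript length was not used either, so these medians do not rank the members.

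**Figure D1:**
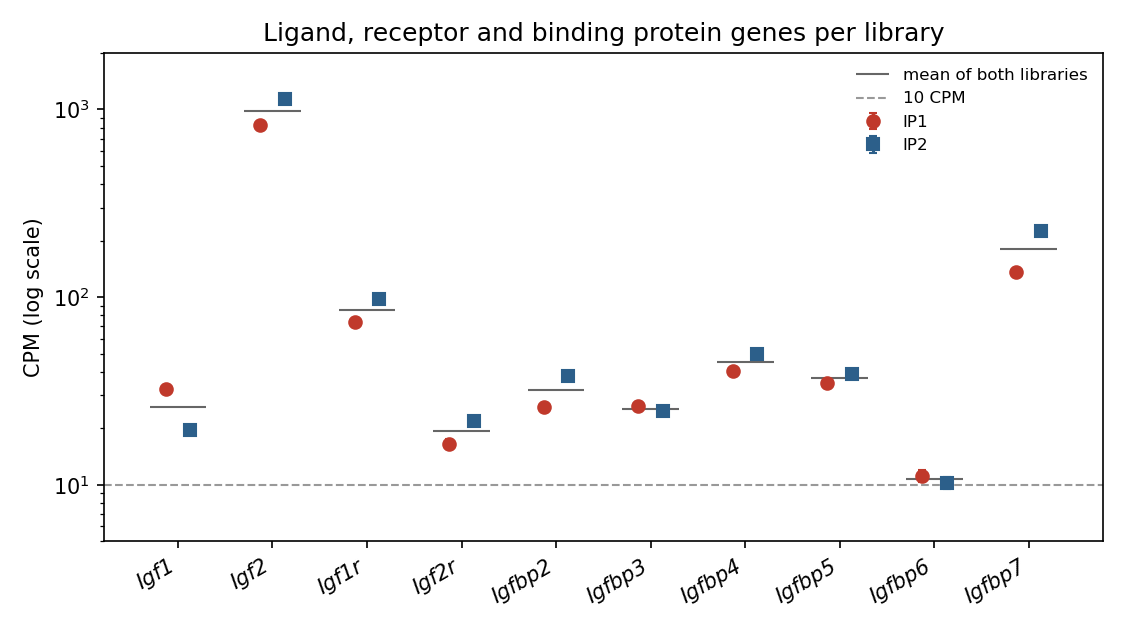
CPM of each of the 10 genes in IP1 (circles) and IP2 (squares) on a log scale, with exact 95% Poisson intervals, the mean of both libraries (line) and the level of 10 CPM (dashed). Igf2 sits at 831 CPM in IP1 and at 1133 CPM in IP2, and Igfbp6 lies closest to the dashed line at 11.2 CPM in IP1, against 10.2 CPM in IP2.

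Of the ligands, Igf2 (chr7:142650768-142666816) was at 831 CPM in IP1 (54164 counts, exact Poisson interval 824 to 838) and 1133 CPM in IP2 (82377 counts, 1125 to 1140). IP2 was the higher library, and the 2 intervals did not overlap. Igf1 (chr10:87858265-87937047) was at 32.5 CPM in IP1 (2116 counts, 31.1 to 33.9) and 19.7 CPM in IP2 (1430 counts, 18.7 to 20.7). Here IP1 was the higher library, and 94.1% of those genes had a ratio closer to equal. The ligand genes thus differed in opposite directions. Igf2 gave 25.6 reads for each Igf1 read in IP1 (interval 24.5 to 26.8) and 57.6 in IP2 (54.7 to 60.7), a comparison between libraries in which gene length cancels.

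Of the receptors, Igf1r (chr7:67952257-68233668) was at 73.3 CPM in IP1 and at 97.6 CPM in IP2, with a mean of 85.4 ± 17.1 CPM (SD, n = 2). Igf2r (chr17:12682406-12769706) was at 16.5 CPM in IP1 and at 22.0 CPM in IP2, with a mean of 19.3 ± 3.86 CPM (SD, n = 2). Both were 1.33-fold higher in IP2. Insr, the gene of the insulin receptor, which can form hybrids with the IGF-1 receptor, was at 60.5 CPM in IP1 and at 76.6 CPM in IP2. There were 1.21 Igf1r reads per Insr read in IP1 (interval 1.16 to 1.26) and 1.27 in IP2 (1.23 to 1.32), and these intervals overlapped. M6pr, the smaller mannose 6-phosphate receptor, was at 49.9 CPM in IP1 and at 75.1 CPM in IP2. Igf2r reads per M6pr read were 0.331 in IP1 (interval 0.309 to 0.355) and 0.293 in IP2 (0.277 to 0.310), and these intervals overlapped by a narrow margin. This was 1.13-fold higher in IP1. For neither pair of genes does overlap of separate intervals place the difference within counting error.

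Among the binding proteins, Igfbp7 (chr5:77349240-77408045), which binds IGFs weakly and is known from vessel walls, was at 136 CPM in IP1 and at 225 CPM in IP2. IP2 was the higher library, and the mean of both was 181 ± 63.2 CPM (SD, n = 2). Igfbp2 (chr1:72824480-72852474), a binding protein of the cerebrospinal fluid that also attaches to integrins, was at 25.9 CPM in IP1 and at 38.2 CPM in IP2. This was 1.48-fold higher in IP2. Igfbp4 (chr11:99040005-99052655), an inhibitor of IGF action until it is cut by a pappalysin, was at 40.4 CPM in IP1 and at 49.8 CPM in IP2. Igfbp5 (chr1:72858065-72874865), which binds matrix, was at 34.7 CPM in IP1 and at 39.1 CPM in IP2. The last pair differed by 1.23-fold and 1.13-fold, higher in IP2 in both cases.

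Igfbp3 (chr11:7206086-7215498), the main carrier of IGF in blood, and Igfbp6 (chr15:102144186-102149512), which prefers IGF-2, were the binding proteins closest to equal. Igfbp3 was at 26.2 CPM in IP1 and at 24.8 CPM in IP2. Igfbp6 was at 11.2 CPM in IP1 and at 10.2 CPM in IP2. For both, the interval of the log2 ratio of IP1 over IP2 included 0, from -0.01 to 0.18 for Igfbp3 and from -0.02 to 0.28 for Igfbp6. The difference was therefore within counting error at this depth.

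Sequence upstream of the start sites is shown for the members on which the results turn: Igf2, which took most of the reads, and Igf1 and Igfbp7, which differed most between the libraries. Each run is the 250 bases before a start listed by RefSeq (GRCm38.p6, the assembly behind mm10), 5′ to 3′ on the strand of the gene. Capitals mark matches on either strand to a TATA box (TATAAA), a GC box (GGGCGG) or a CCAAT box (CCAAT). The 2 Igf2 windows are those of the starts nearest to the end of the gene, out of 4 listed.
Igf2, chr7:142657497-142657746, minus strand: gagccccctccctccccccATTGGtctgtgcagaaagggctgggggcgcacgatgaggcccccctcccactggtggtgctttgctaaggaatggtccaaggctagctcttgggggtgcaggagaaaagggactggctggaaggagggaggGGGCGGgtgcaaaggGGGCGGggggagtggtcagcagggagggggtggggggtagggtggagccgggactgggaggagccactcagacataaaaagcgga
Igf2, chr7:142658805-142659054, minus strand: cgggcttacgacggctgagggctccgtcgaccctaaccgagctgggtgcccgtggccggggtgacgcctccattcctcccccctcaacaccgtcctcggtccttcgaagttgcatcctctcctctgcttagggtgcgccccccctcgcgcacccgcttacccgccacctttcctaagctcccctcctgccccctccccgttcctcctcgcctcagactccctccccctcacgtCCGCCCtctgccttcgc
Igf1, chr10:87860861-87861110, plus strand: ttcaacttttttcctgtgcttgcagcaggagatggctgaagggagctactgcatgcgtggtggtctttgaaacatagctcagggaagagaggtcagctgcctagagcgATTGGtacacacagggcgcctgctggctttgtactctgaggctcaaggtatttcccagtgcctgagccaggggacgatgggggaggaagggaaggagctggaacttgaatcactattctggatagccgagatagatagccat
Igfbp7, chr5:77408046-77408295, minus strand: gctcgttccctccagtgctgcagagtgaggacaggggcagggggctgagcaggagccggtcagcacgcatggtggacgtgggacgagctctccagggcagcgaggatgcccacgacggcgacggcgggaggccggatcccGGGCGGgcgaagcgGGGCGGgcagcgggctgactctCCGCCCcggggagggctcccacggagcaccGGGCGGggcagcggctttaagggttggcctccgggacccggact

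The first Igf2 window held 2 GC boxes, 100 and 85 bases before the start, 1 CCAAT box, 231 bases before it, and 6 CpG dinucleotides. The second held 1 GC box, 17 bases before its start, and 22 CpGs. The Igf2 windows not shown, chr7:142661272-142661521 and chr7:142666817-142667066, held none of these boxes, and had 10 and 1 CpGs. The Igfbp7 window held 4 GC boxes and 26 CpGs, and the Igf1 window 1 CCAAT box, no GC box and 5 CpGs. Over all 14 windows listed for the 10 genes, 6 held a GC box, 3 a CCAAT box and 2 a TATA box, in Igfbp4 and Igfbp6. Among 32851 windows of all genes, 32.7% held a GC box, 33.9% a CCAAT box and 12.4% a TATA box, and the median number of CpGs was 6, against 12.5 in the members' windows. The counts are summed per gene, so they do not say which start was used.

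Reads of the system were shared out in much the same way in both libraries. Igf2 took 67.7% of the reads of the 10 genes in IP1 (exact binomial interval 67.4 to 68.0%) and 68.3% in IP2 (67.99 to 68.5%). The receptors together took 7.32% in IP1 and 7.21% in IP2, and the 6 binding proteins 22.4% in IP1 and 23.4% in IP2. Within the binding proteins the make-up moved, since Igfbp7 took 11.1% of the reads of the system in IP1 (10.9 to 11.3%) and 13.6% in IP2 (13.4 to 13.8%), while the other 5 together took 11.3% in IP1 and 9.77% in IP2. Igf1 took 2.64% in IP1 (2.53 to 2.76%) and 1.19% in IP2 (1.13 to 1.25%).

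**Figure D2:**
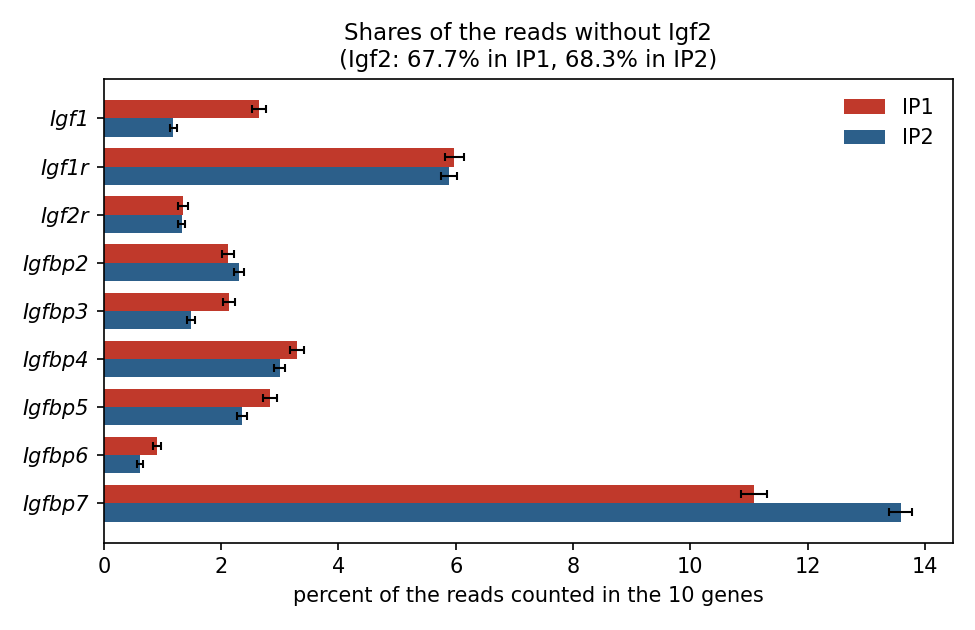
Percent of the reads counted in the 10 genes that each gene took in IP1 and IP2, with exact 95% binomial intervals and Igf2 left out of the bars. Igfbp7 takes the largest share among these 9 genes, 11.1% in IP1 and 13.6% in IP2, and Igf1 the one that differs most in proportion, 2.64% in IP1 and 1.19% in IP2.

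Ratios between the libraries were set beside those of the 9656 genes with a mean CPM of 10 or more, and a ratio of 1.5 or more was called. With 1 library on each side the ratio has no replicate check, so no p-value is given. Igf1 was the 1 member called on the IP1 side (log2 ratio of IP1 over IP2 0.72, interval 0.63 to 0.82), where 4.42% of all tested genes were called. Igfbp7 was the 1 member called on the IP2 side (-0.73, interval -0.77 to -0.69), against 6.57% of all genes. Under TMM or DESeq2 scaling Igfbp2 was called as well, which made 2 members, while the share of all tested genes called on the IP2 side came to 7.94% under TMM and 7.93% under DESeq2. Of tested genes, 94.1% had a ratio closer to equal than that of Igf1 and 94.3% closer than that of Igfbp7. In all, 7 members were higher in IP2 and 3 in IP1, against 46.7% of tested genes higher in IP2. The median log2 ratio was -0.36 over the members and 0.03 over all tested genes.

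**Figure D3:**
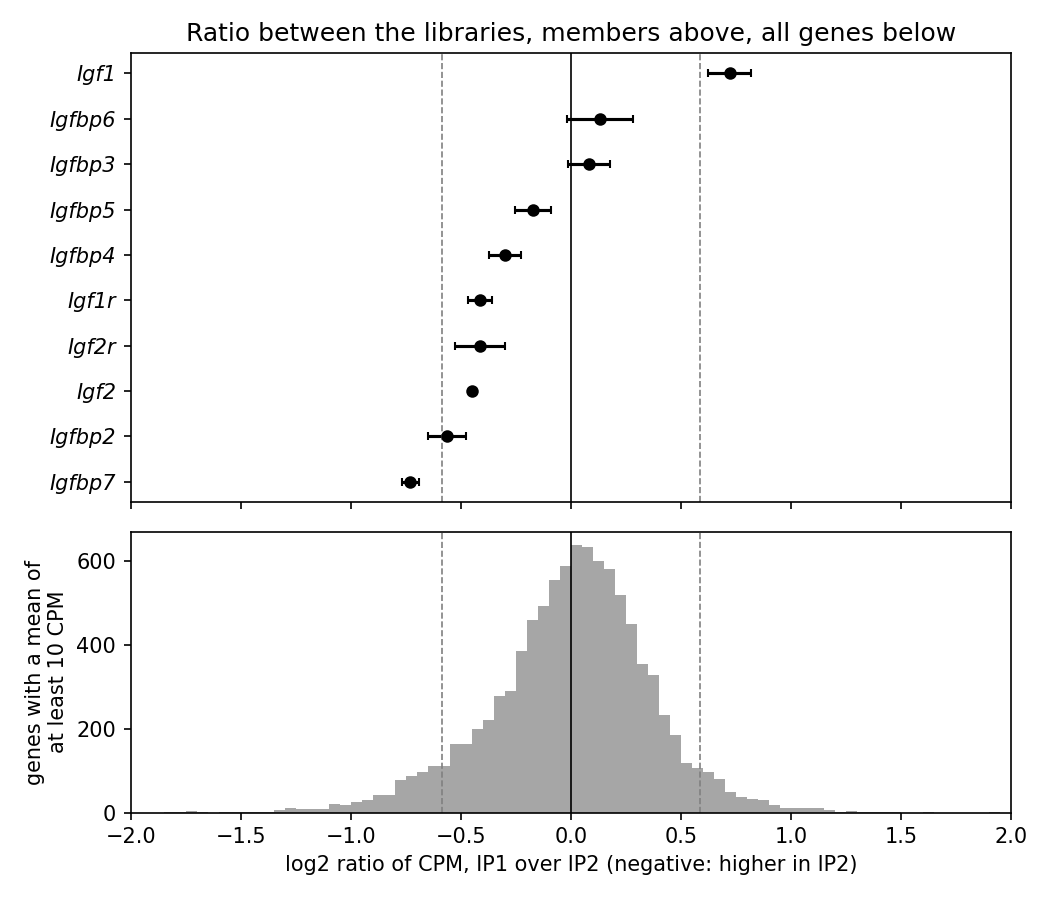
Log2 ratio of CPM, IP1 over IP2, for the 10 genes with exact 95% counting intervals (top) and for the genes with a mean CPM of 10 or more (bottom, histogram, ratios beyond 2 log2 units not drawn). Dashed lines mark a ratio of 1.5, which Igf1 passes at 0.72 and Igfbp7 at -0.73.

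The common biological coefficient of variation between the libraries, fitted by edgeR, was 0.408 over 17306 genes with at least 10 counts and 0.177 over those with a mean CPM of 10 or more. The coefficients of variation of the members ran from 4.06% for Igfbp3 to 35.0% for Igfbp7, with 34.7% for Igf1 and 21.7% for Igf2.

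Several members lie beside or over other genes. Igf2 spans Mir483, the gene of an intronic miRNA, and part of the antisense gene Igf2os, and counting without a known strand setting cannot separate sense from antisense reads. Mir483 had no count. Its 2 mature miRNAs are shown because they lie within the span of Igf2, with the seed (bases 2 to 8) in capitals.
mmu-miR-483-5p: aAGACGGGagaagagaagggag
mmu-miR-483-3p: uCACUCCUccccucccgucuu

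Igf2os was at 4.89 CPM in IP1 and at 3.34 CPM in IP2, the opposite direction to Igf2, so that there were 169.8 Igf2 reads per Igf2os read in IP1 and 339 in IP2. The insulin gene Ins2, 11839 bases beyond Igf2, had no count. On the other side, Mrpl23, a mitochondrial ribosomal protein gene, had 7 counts in each library. H19, the imprinted noncoding RNA of the same cluster, had 21 counts in IP1 and 0 in IP2. Airn, an antisense RNA that overlaps Igf2r over 28396 bases and silences it on the paternal chromosome in mouse, was at 10.7 CPM in IP1 and at 6.59 CPM in IP2. There were 1.55 Igf2r reads per Airn read in IP1 (interval 1.41 to 1.71) and 3.34 in IP2 (3.01 to 3.71). Mas1, a neighbour of Igf2r, was at 5.87 CPM in IP1 and at 5.38 CPM in IP2.

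Igfbp2 and Igfbp5 lie 5590 bases apart on chromosome 1, with Rpl37a (23.1 CPM in IP1, 13.5 CPM in IP2) and Tnp1 (no count) as the outer neighbours. Igfbp3 lies 3539 bases from Igfbp1, a binding protein known from liver, which had no count in either library. On its other side Tns3 was at 385 CPM in IP1 and at 451 CPM in IP2. Igfbp7 overlaps Polr2b by 89 bases. Reads that the counting placed in both genes were not assigned, and which reads these were depends on the strand setting, which is not given. Polr2b was at 115 CPM in IP1 and at 92.4 CPM in IP2, 1.25-fold higher in IP1, while Igfbp7 was higher in IP2. Noa1 (36.4 CPM in IP1, 27.7 CPM in IP2) and Adgrl3 (101 CPM in IP1, 121 CPM in IP2) flank it further out. Of the remaining nearest coding neighbours, Synm beside Igf1r (47.8 CPM in IP1, 80.3 CPM in IP2), Top2a beside Igfbp4 (15.6 CPM in IP1, 16.7 CPM in IP2) and Spryd3 beside Igfbp6 (19.5 CPM in IP1, 15.5 CPM in IP2) were above 10 CPM. Pmch beside Igf1, Pgpep1l beside Igf1r, Tns4 beside Igfbp4 and Soat2 beside Igfbp6 were at most at 0.220 CPM in either library.

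Genes around the system were read from lists, and the genes named are among those with the most reads of their list. Of 8 relatives of the ligands, receptors and binding proteins, 1 (Insr) was at 10 CPM or more in both libraries. Over all genes listed the share was 28.3%. Igfals, which encodes the acid labile subunit of the circulating IGF complex, and the insulin genes Ins1 and Ins2 had no count, as had Igfbp1. Esm1 was at 0.368 CPM in IP1 and at 0.330 CPM in IP2, and Insrr and Igfbpl1 had no count in IP1 and 11 and 7 counts in IP2.

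Of 10 genes for proteases that cut the binding proteins and for inhibitors of these proteases, 3 were at 10 CPM or more in both libraries. That level was reached by 28.3% of all genes listed. Stc1, whose product stanniocalcin-1 inhibits pappalysins, was at 75.2 CPM in IP1 and at 52.5 CPM in IP2. Adam12 was at 16.1 CPM in IP1 and at 35.3 CPM in IP2, and Htra1, a serine protease gene, was at 12.02 CPM in IP1 and at 29.1 CPM in IP2. Both passed a ratio of 1.5 on the IP2 side, as did 6.57% of all tested genes, and Stc1 was higher in IP1 without passing it. The pappalysin genes Pappa2 (1.87 CPM in IP1, 3.77 CPM in IP2) and Pappa (0.0153 CPM in IP1, 0.481 CPM in IP2) were low, and Plg and Klk1 had no count.

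Of 28 genes of signalling below the receptors, 25 were at 10 CPM or more in both libraries and 0 of these passed a ratio of 1.5 in either direction. Over all genes, 28.3% were at that level, and of those tested 4.42% passed the ratio with IP1 as the higher library and 6.57% with IP2. Gsk3b was at 1238 CPM in IP1 and at 1126 CPM in IP2. Pik3r1, a PI3 kinase subunit gene, was at 712 CPM in IP1 and at 835 CPM in IP2. Of the 25, 13 were higher in IP2 and 12 in IP1.

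Of 9 genes that act on the Igf2 message or the imprinted loci, 2 were at 10 CPM or more in both libraries, namely Ctcf, which encodes the insulator protein of the Igf2 and H19 locus (189 CPM in IP1, 191 CPM in IP2), and Plagl1 (12.5 CPM in IP1, 11.5 CPM in IP2). Igf2bp3, of a family that binds Igf2 messages, was at 5.61 CPM in IP1 and at 4.22 CPM in IP2. Of 6 sorting partners and ligands of the IGF-2 receptor, 5 were at that level, and M6pr had the most reads. M6pr passed a ratio of 1.5 on the IP2 side (1.503-fold) and Gga2 on the IP1 side (1.56-fold). Of all tested genes, 6.57% passed it on the IP2 side and 4.42% on the IP1 side. The level of 10 CPM in both libraries was reached by 28.3% of all genes listed. After M6pr, the next sorting partners by reads were Gga3 (29.6 CPM in IP1, 43.5 CPM in IP2), Gga2 (28.3 CPM in IP1, 18.2 CPM in IP2) and Ap1m1 (23.8 CPM in IP1, 17.4 CPM in IP2).

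Markers of the cell types that the RNA could come from were read beside the members. The 12 fibroblast and meningeal markers were all at 10 CPM or more in both libraries, with a summed level of 2851 CPM in IP1, against 3697 CPM in IP2. Of these, 11 were higher in IP2, against 46.7% of tested genes. The median log2 ratio of IP1 over IP2 over the 12 was -0.27, against -0.45 for Igf2. Apod, which had the most reads of them, was at 1712 CPM in IP1 and at 2446 CPM in IP2, Aldh1a2 at 586 CPM in IP1 and at 551 CPM in IP2, and Dcn at 206 CPM in IP1 and at 236 CPM in IP2. Igf2 reads per Apod read were 0.485 in IP1 and 0.463 in IP2, and per Dcn read 4.03 in IP1 and 4.79 in IP2. Both pairs were picked after values were seen. Other markers of the list lay on both sides of Igf2, with log2 ratios from 0.09 for Aldh1a2 to -0.92 for Col1a2. Cemip (-0.86) and Col1a1 (-0.83) also lay further to the IP2 side than Igf2, and Slc6a13 (-0.03) lay near equal. Lum (-0.39) lay closer to Igf2 than Dcn (-0.20) did. The 8 choroid plexus markers summed to 24.1 CPM in IP1, against 31.4 CPM in IP2. Of these, Kl (19.4 CPM in IP1, 25.0 CPM in IP2), Clic6 and Prlr had the most reads, Kcne2 had no count, and Ttr, the most abundant choroid plexus message, had 4 counts in IP1 and 37 in IP2.

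Pericyte markers summed to 6466 CPM in IP1, against 6421 CPM in IP2, and Rgs5 (4841 CPM in IP1, 4061 CPM in IP2), Vtn and Abcc9 had the most reads. Of the 10, 8 were higher in IP2, 4 of them by 1.5-fold or more, and the median log2 ratio was -0.57. Of all tested genes, 46.7% were higher in IP2 and 6.57% passed 1.5-fold on that side. Pericyte markers were not alone in this. The ratio was passed there by 4 of 8 tested astrocyte, 3 of 12 fibroblast and meningeal and 1 of 3 tested endothelial markers. The same held for 2 of 7 oligodendrocyte precursor and 2 of 7 oligodendrocyte markers, but for 0 of the smooth muscle and neuron markers. Igfbp7 and Igfbp2, with log2 ratios of -0.73 and -0.56, stood on the IP2 side. So did astrocyte markers, of which 8 of 9 were higher in IP2 (summed level 3276 CPM in IP1, 4906 CPM in IP2), with a median log2 ratio of -0.69 over the 8 with a mean CPM of 10 or more, and with the most reads in Glul, Slc1a2 and Aldoc. Arterial smooth muscle markers (most reads in Myl9, Acta2 and Myh11) summed to 1643 CPM in IP1, against 1403 CPM in IP2, with a median log2 ratio of -0.02. The part of each cell type in the levels of the members was not tested.

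Endothelial markers summed to 81.2 CPM in IP1, against 85.6 CPM in IP2 over 11 genes, of which 2 (Emcn and Slc2a1) were at 10 CPM or more in both libraries and Flt1 was next. The tight junction gene Cldn5 had 5 counts in IP1 and 0 in IP2. The 9 microglial markers, with Tmem119 and P2ry12 among those with the most reads, summed to 31.4 CPM in IP1, against 37.0 CPM in IP2 and 0 of them were at 10 CPM or more in both. Of the 9, 7 had the higher value in IP2, while Igf1, a gene that microglia and interneurons can express, was higher in IP1. Inhibitory neuron markers (most reads in Gad2, Gad1 and Sst) summed to 1026 CPM in IP1, against 1012 CPM in IP2, with 4 of 8 higher in IP1 and a median log2 ratio of 0.03 over the 6 with a mean CPM of 10 or more. Excitatory neuron markers (most reads in Camk2a, Rorb and Slc17a7) had 5 of 6 higher in IP1 and a median of 0.17. Oligodendrocyte precursor markers (most reads in Olig1, Pdgfra and Sox10) had a median of -0.29 and oligodendrocyte markers (Cnp and Mbp among those with the most reads) of -0.32.

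**Figure D4:**
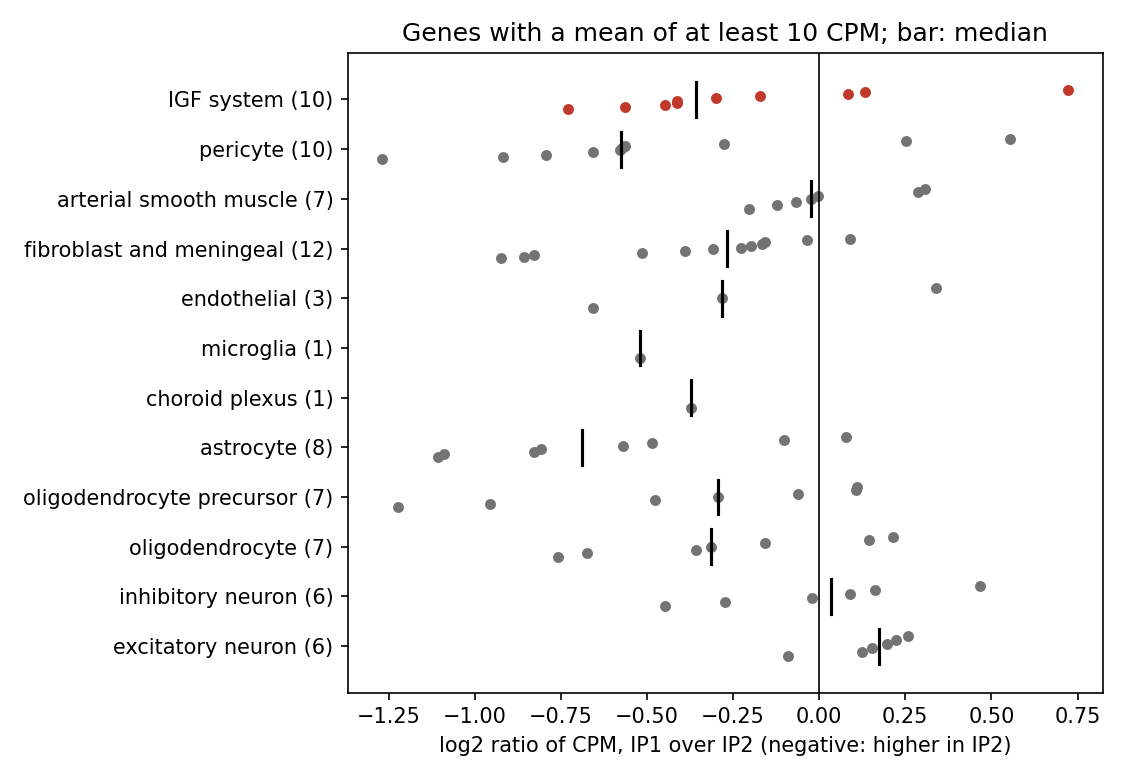
Log2 ratio of CPM, IP1 over IP2, for the genes of the IGF system (top row) and of 11 marker lists, each point 1 gene with a mean CPM of 10 or more, the bar their median and the number in brackets the genes shown. The IGF system has 3 points right of 0, among them Igf1 at 0.72, and 7 left of it.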

How the data were processed

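Ribosome-bound RNA of 2 libraries of 1 group was measured by RNA sequencing. Per the submitters' processing notes, STAR 2.0.0e, HTSeq and the mm10 genome were used. Annotation and strand setting: not given in the sources used here. The deposited files hold raw counts per gene symbol, with no normalization by the authors. Reads in several genes (1.65% of listed reads in IP1, 1.60% in IP2) or aligned to several places (31.2% in IP1, 31.5% in IP2) were not assigned. These lines and a row named unknown (1 read in IP1, 0 in IP2, 8.9e-07% of listed reads in IP1) were left out.

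Counts were divided by the total gene counts of the library (CPM). Intervals are exact at 95%: Poisson for levels, binomial for shares, and conditional binomial for ratios of IP1 over IP2. A ratio of 1.5 was called over genes with a mean CPM of 10 or more. No contrast of conditions exists, so edgeR's quasi-likelihood test could not be used. edgeR 4.0.16 gave TMM factors and the common coefficient of variation with an intercept-only design, and DESeq2 1.42.0 gave alternative size factors (R 4.3.3, Python 3.11.15, numpy 2.4.6, pandas 2.3.3, scipy 1.17.1). The ratio and its interval were run on simulated data that held counting error only. That run is no check on spread between libraries beyond counting, nor on the ratios called here.

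Coordinates, neighbours and sequences are from RefSeq (GRCm38.p6), where all 10 genes matched by symbol. The members, 5 pathway lists and 11 marker lists were chosen with earlier results of these data known. Named were all members, their nearest protein-coding neighbours, Igfbp1, Insr, the 4 genes of a pathway list with the most reads, the 3 of a marker list, and listed genes without counts. A few genes under this rule are left unreported. Pappa, H19, Igf2os, Polr2b, Mir483, Cldn5, Ttr and Gdnf, and the pairs of genes set in read ratios, were added after values were seen.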

Additional observations from a re-analysis of the deposited data

How the results depend on the processing

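No paired analysis was possible because the series has 1 group of 2 libraries. At a threshold of 30 CPM, 5 members were at that level in both libraries in place of 10, and at 1 CPM all 10 were. At a ratio of 2, 0 members were called on either side. TMM and DESeq2 scaling moved the log2 ratio of IP1 over IP2 by -0.05 and gave 2 members called on the IP2 side, Igfbp7 and Igfbp2, while Igf1 was the 1 on the IP1 side. No member's ratio changed sign under these scalings or without Rn45s. Under TMM the ratios of Igf2 (-0.50, interval with library totals -0.46 to -0.43) and Igfbp7 (-0.78, -0.77 to -0.69) left their counting intervals. The mean CPM of each member moved by less than its SD in all 30 values under other scalings. TMM and DESeq2 scaling keep the average library size, so they could hardly move these means and are no check on them. Leaving out 1 of 2 libraries only gives the value of the other. The common coefficient of variation was 0.177 over genes with a mean CPM of 10 or more and 0.410 with library totals. Levels per kilobase were not run, since no transcript length was used here. The counting intervals of the Igfbp3 and Igfbp6 ratios include equality. With 1 library on each side, no member's ratio has a replicate check, whatever the depth.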
